A study of Homo sapiens with 30 samples.

Results

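The 6 cardiac T-box genes TBX1, TBX2, TBX3, TBX5, TBX18 and TBX20 were taken by their exact symbols, and all 6 were found among the 41495 entries of the time-course table. The table of the day 3 sort holds 3 of them among its 4648 genes, and that of the day 4 sort holds 4 among 4825. T-box factors are transcription factors that bind DNA through a shared domain, the T-box. In the developing heart TBX5 and TBX20 act in chamber muscle, where TBX5 works together with NKX2-5 and GATA4. TBX2 and TBX3 are repressors that keep the atrioventricular canal and the conduction system from taking on a chamber programme. TBX1 is known from the second heart field and the pharynx, and TBX18 from the sinus horns and the epicardium.

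The cells were H7 human embryonic stem cells (hESC), a single established line at passage 60, and their derivatives on the way to cardiomyocytes. Per the labels' protocols, differentiation began with CHIR99021, a GSK3 inhibitor that switches on WNT signalling, at 12 µM for 24 hours, followed by 5 µM of the WNT secretion inhibitor IWP4 for 2 days, in B27 medium without insulin, and later B27 with insulin. The 11 time points are hESC, days 1, 2, 3, 4, 5, 6, 8, 10 and 15 (D1 to D15) and cardiomyocytes of day 31, of which only the last were purified on a Percoll gradient. PMESO cells of day 3 were sorted as positive for the receptor ROR2 and set against ROR2-negative cells, and CMESO cells of day 4 were sorted as positive for ROR2 and PDGFRa and set against ROR2-positive, PDGFRa-negative cells. Each of the 15 groups had 2 libraries of total RNA depleted of ribosomal RNA. Whether the 2 were separate cultures is not in the labels, and how the authors' test used them is not given in the sources used here. The p-values in the sort tables can therefore measure no more than the spread between these libraries, which may be technical.

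Each gene has a single FPKM value per group in these tables. FPKM is a level per transcript length, so levels of different genes can be compared, but no error can be set beside a time-course value, and neighbours in any order of levels cannot be told apart by their spread. Differences over time are therefore given without a test, and calling a gene 2-fold higher or lower means that its log2(FPKM + 1) differed by at least 1. On this scale a gene below 1 FPKM at the start of a comparison cannot be called 2-fold lower. The labels matched their defining markers: from hESC to cardiomyocytes POU5F1 went from 1026 to 1.54 FPKM and TNNT2 from 4.50 to 2785, and in the authors' deposited tables ROR2 stood at 5.90 in ROR2-negative cells and 72.0 in PMESO, and PDGFRA at 8.28 in PDGFRa-negative cells and 304 in CMESO. The median of 12149 genes measured at 1 FPKM or more in every column lay -0.37 log2 units from their mean over all columns at D15 and 0.22 at D1, 0.15 at D2, and within 0.08 of it elsewhere. For the members, 2-fold steps between neighbouring time points into or out of D1 and D15 are therefore also given after rescaling to a common median. Other values of D1 and D15, including list sums and those of other genes, are given without rescaling unless stated.

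The 6 genes came up in a sequence. TBX3 reached 1 FPKM at D1, TBX2 and TBX20 at D3, TBX1 and TBX5 at D4, and TBX18 at D5. The sequence depends in part on that minimum: at 2 FPKM, TBX20 came at D4 and TBX1 and TBX5 at D5 with TBX18, and at 0.5 FPKM, TBX3 was already past it in hESC, TBX1 came at D3 and TBX18 at D4 with TBX5. By D10 all 6 were at least 2-fold above hESC, beside 13.4% of all kept genes, and 0 were lower (background 13.7%). Between D4 and D10, 4 were 2-fold higher (background 5.49%) and 0 lower (background 3.35%). In cardiomyocytes 5 of the 6 were at least 2-fold above hESC (background 18.7%) and 0 were 2-fold lower (background 16.9%). TBX1 was the exception, at 0.484 FPKM in hESC and 0.277 in cardiomyocytes. Since all 6 stood below 1 FPKM in hESC, none could be called lower than hESC on this scale. Against D1 in place of hESC the counts were also 5 and 0 (background 18.4% and 18.1%). At D1 only TBX3, at 3.09 FPKM, stood high enough to be called lower from there. The median log2 difference of the 6 from hESC to cardiomyocytes was 4.75, beside 0.030 over all kept genes.

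**Figure D1:**
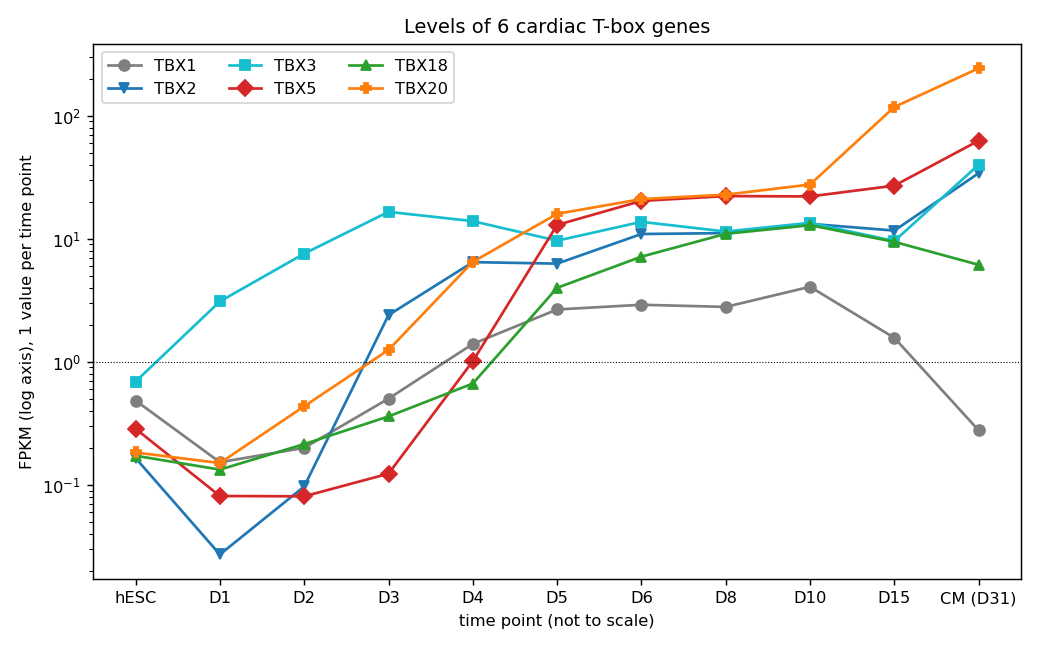
FPKM (log axis) of the 6 genes at each of the 11 time points, 1 deposited value per point and no error bars; the dotted line marks 1 FPKM and time is not to scale. TBX3 leads up to D4, TBX20 and TBX5 lead from D5, and TBX1 is at 4.07 at D10 and 0.277 in cardiomyocytes (CM).

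TBX3, the repressor known from the conduction system, was the earliest member. It stood at 0.690 FPKM in hESC, 3.09 at D1, 7.56 at D2, 16.5 at D3, 13.9 at D4, 9.63 at D5, 13.7 at D6, 11.4 at D8, 13.5 at D10, 9.57 at D15 and 39.9 in cardiomyocytes. The level climbed at each step up to D3, and from D3 to D15 it lay between 9.57 and 16.5. Of the 6 genes it alone was 2-fold higher at D1 than in hESC (log2 difference 1.28, and 1.12 after rescaling), where 12.0% of kept genes were higher, and 0 members were 2-fold lower (background 11.1%). It alone was also 2-fold higher at D2 than at D1 (1.07, and 1.09 after rescaling, background 2.66%), and 0 members were lower (background 2.34%). At D3 TBX3 (1.03) and TBX2 (1.63) were 2-fold higher than at D2, as were 3.09% of kept genes, and 0 members were lower (background 5.04%). No member stood at 1 FPKM in hESC, and only TBX3 did at D1 and D2. No other member could therefore be called lower in these steps, and from hESC not even TBX3.

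TBX2, the close relative of TBX3, came up 2 time points later. Its values were 0.165 FPKM in hESC, 0.0272 at D1, 0.0971 at D2, 2.40 at D3, 6.45 at D4, 6.27 at D5, 10.9 at D6, 11.1 at D8, 13.2 at D10, 11.6 at D15 and 34.1 in cardiomyocytes. From D6 to D15 TBX2 and TBX3 stood within a narrow range of each other, with TBX2 between 10.9 and 13.2. After rescaling, TBX2 was at 13.4 at D10 and 15.1 at D15, so the direction of that step depends on the scaling. TBX2 and TBX3 together made up 89.4% of the summed FPKM of the 6 genes at D3, 30.9% at D5, 12.0% at D15 and 19.2% in cardiomyocytes. In the sort tables the locus given for TBX2 (hg19 chr17:58754814-59488916) spans 734103 bases, while the gene itself is 9571 bases long in GENCODE 29, and whether this wider span affects the values of TBX2 in those tables was not tested.

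TBX20, a factor of chamber muscle, reached the highest level of the 6. It stood at 0.183 FPKM in hESC, 0.150 at D1, 0.435 at D2, 1.25 at D3, 6.48 at D4, 15.9 at D5, 21.0 at D6, 22.8 at D8, 27.5 at D10, 117 at D15 and 242 in cardiomyocytes. The level rose steeply from D3 to D5 and from D10 to D15, with a slow climb between them. It was higher again in cardiomyocytes than at D15 (log2 difference 1.04, and 0.70 after rescaling). At D4, TBX20 (1.73) and TBX2 (1.13) were 2-fold higher than at D3, beside 6.79% of kept genes, and 0 members were lower (background 6.30%). From D10 to D15 TBX20 was the member that was 2-fold higher (log2 difference 2.05, and 2.40 after rescaling, background 6.32%), and 0 were 2-fold lower (background 9.51%).

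TBX5, the partner of NKX2-5 and GATA4 in chamber muscle, came up late, with its largest step from D4 to D5. Its values were 0.286 FPKM in hESC, 0.0812 at D1, 0.0807 at D2, 0.123 at D3, 1.01 at D4, 12.9 at D5, 20.3 at D6, 22.2 at D8, 22.04 at D10, 27.0 at D15 and 62.5 in cardiomyocytes. TBX5 was the lowest of the 6 at D2 and D3 and the second highest from D5 onward. The step from D3 to D4 had a log2 difference of 0.84, and that from D15 to cardiomyocytes 1.18 (0.86 after rescaling). The step from D4 to D5 had a log2 difference of 2.79. Of the 6 genes 3 were 2-fold higher in that step, TBX5, TBX18 (1.58) and TBX20 (1.18), beside 3.68% of kept genes, and 0 were 2-fold lower (background 1.26%).

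TBX18, known from the sinus horns and the epicardium, shared that step but not the later course. It stood at 0.173 FPKM in hESC, 0.133 at D1, 0.214 at D2, 0.360 at D3, 0.666 at D4, 3.99 at D5, 7.15 at D6, 11.0 at D8, 12.9 at D10, 9.42 at D15 and 6.14 in cardiomyocytes. Its highest value was that of D10, and purified cardiomyocytes held 47.7% of it. The difference from D10 to cardiomyocytes was -0.96 on the log2 scale, just short of 2-fold.

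TBX1, the second heart field and pharyngeal factor, stayed low throughout. Its values were 0.484 FPKM in hESC, 0.153 at D1, 0.200 at D2, 0.502 at D3, 1.40 at D4, 2.66 at D5, 2.91 at D6, 2.79 at D8, 4.07 at D10, 1.56 at D15 and 0.277 in cardiomyocytes. The gene was above 1 FPKM from D4 to D15 and below it at both ends. Against D10, cardiomyocytes were lower by 1.99 log2 units, which made TBX1 the member that was 2-fold lower in that comparison (background 4.61%).

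Between D5 and D10 no single step reached 2-fold, but small steps added up. From D5 to D6, from D6 to D8 and from D8 to D10, 0 of the 6 genes were 2-fold higher (background 1.21%, 1.33% and 1.16%) and 0 were 2-fold lower (6.18%, 0.677% and 1.11%). The largest single steps in this period were those of TBX2 (0.71) and TBX18 (0.71) from D5 to D6. Over the whole period TBX18 went from 3.99 to 12.9 FPKM, TBX2 from 6.27 to 13.2, and the summed FPKM of the 6 genes from 51.4 to 93.2.

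The last step joined the time from D15 to day 31 with the Percoll purification, which the design cannot tell apart. TBX3 (1.95), TBX2 (1.47), TBX5 (1.18) and TBX20 (1.04) were 2-fold higher in cardiomyocytes than at D15, beside 7.23% of kept genes, and TBX1 (-1.01) was 2-fold lower, beside 4.07%. After rescaling, which lowers this step by 0.34 log2 units for high genes, TBX3 (1.64) and TBX2 (1.16) kept the 2-fold difference. TBX5 (0.86) and TBX20 (0.70) did not, and TBX1 (-1.24) stayed 2-fold lower. Against D10, which does not use the D15 column, the same 4 genes were 2-fold higher (background 8.14%), with TBX20 at 3.09, TBX3 at 1.50, TBX5 at 1.46 and TBX2 at 1.30. TBX3 and TBX2 are repressors of chamber genes, and TBX5 and TBX20 act in chamber muscle, so members of both roles were higher in the purified cells.

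**Figure D2:**
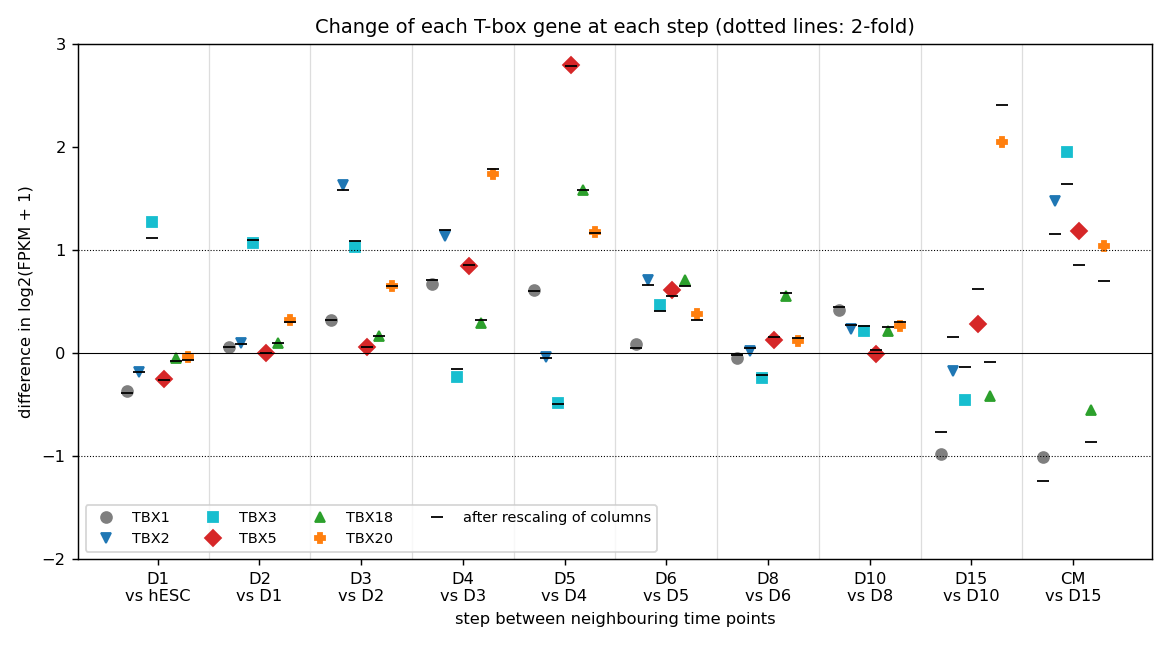
Difference in log2(FPKM + 1) of each gene at each step between neighbouring time points (coloured points), with the same difference after rescaling of the columns (black dashes) and dotted lines at 2-fold. TBX5 has the largest single step (2.79, D4 to D5), the steps from D5 to D10 lie within the dotted lines, and rescaling matters most in the 2 steps that use D15.

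Markers of other cell types also differed in this step. The fibroblast and stroma list, all 8 genes of which were found, summed to 3151 FPKM at D15 and 977 in cardiomyocytes. Of its 7 kept genes 6 were 2-fold lower in the latter (background 4.07%). The epicardium list without TBX18 (10 genes) summed to 67.6 FPKM at D10, 93.6 at D15 and 42.9 in cardiomyocytes, and its levels ranged from 4.20 at D1 upward. From D10 to cardiomyocytes the epicardium list was mixed, beside 4.61% of kept genes lower and 8.14% higher. Of its 11 genes, TBX18 included, 3 were 2-fold lower (BNC1, MSLN and LRRN4) and 1, SEMA3D, was 2-fold higher (7.67 and 16.8 FPKM). BNC1 stood at 17.1 and 4.32 FPKM and LRRN4 at 24.6 and 4.85. The defining marker WT1, at 5.44 and 2.38, did not reach a 2-fold difference, and UPK1B (0.901 and 2.30) and ALDH1A2 (5.19 and 7.03) were higher by less than 2-fold. The cardiomyocyte list (7 genes) summed to 3409, 7110 and 10254 FPKM at D10, D15 and in cardiomyocytes. No gene of these 3 lists was listed at 0 at any time point. The part of the cell mixture in the levels of TBX18, TBX1 and the other members was not tested, and in bulk RNA fewer cells of a type and less RNA per cell cannot be told apart.

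**Figure D3:**
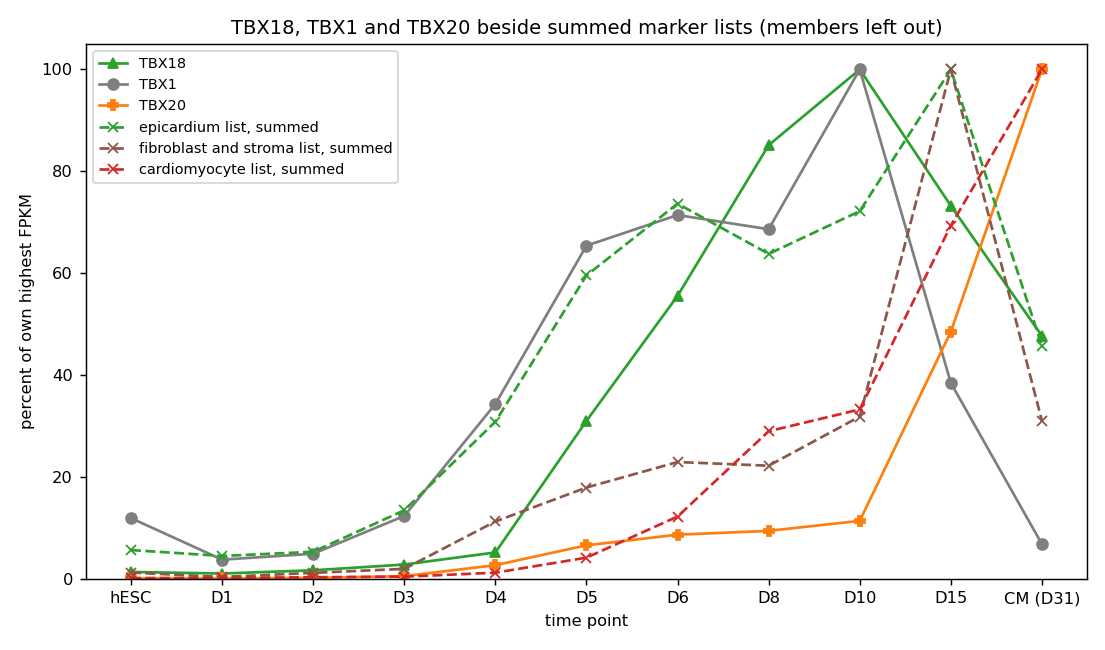
TBX18, TBX1 and TBX20 (solid lines) and the summed FPKM of 3 marker lists without the members (dashed lines), each as percent of its own highest value over the 11 time points. TBX18 is highest at D10 and the epicardium list at D15, where its sum rests on SEMA3D (7.67 FPKM at D10 and 44.1 at D15). In cardiomyocytes TBX18 stands at 47.7% and the epicardium list at 45.8%, while TBX20 and the cardiomyocyte list are highest there.

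The promoters of TBX5, TBX18 and TBX20 are shown because these are the 3 genes that were 2-fold higher together at D5. RefSeq windows (GRCh38.p14) matched 4 of the 6 genes, TBX1, TBX5, TBX18 and TBX20. TBX2 and TBX3 had no entry. The bases before the transcript start are printed from 5′ to 3′ on the gene's own strand, for TBX5 at its distal start (chr12:114408443-114408692, minus strand), for TBX18 at chr6:84764599-84764848 (minus strand) and for TBX20 at chr7:35254148-35254350 (minus strand, without the 47 bases that GENCODE 29 places in an exon of the gene). Capitals mark matches to the searched motifs.
TBX5: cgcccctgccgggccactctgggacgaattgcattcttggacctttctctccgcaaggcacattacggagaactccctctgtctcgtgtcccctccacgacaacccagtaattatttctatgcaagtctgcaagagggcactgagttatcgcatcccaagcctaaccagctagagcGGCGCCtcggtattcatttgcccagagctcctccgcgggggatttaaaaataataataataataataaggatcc
TBX18: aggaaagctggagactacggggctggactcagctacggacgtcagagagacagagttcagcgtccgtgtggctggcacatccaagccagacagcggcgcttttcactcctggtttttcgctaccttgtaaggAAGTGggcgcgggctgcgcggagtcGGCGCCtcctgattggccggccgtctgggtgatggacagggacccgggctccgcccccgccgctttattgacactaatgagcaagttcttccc
TBX20: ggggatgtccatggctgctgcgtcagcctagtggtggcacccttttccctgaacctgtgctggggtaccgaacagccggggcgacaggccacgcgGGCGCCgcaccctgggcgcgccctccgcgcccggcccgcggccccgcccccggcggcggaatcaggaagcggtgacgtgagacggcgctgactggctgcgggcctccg
On both strands of the 250 bases before each start, 5 motifs were searched: the T-box half-site GGTGTGA, the GATA motif AGATAA, the NKX2-5 motif AAGTG, the MEF2-type motif TATTTATA and the BMP-SMAD motif GGCGCC, which is its own reverse complement. Each of the 3 printed windows holds GGCGCC, first base 74 bases before the distal start in TBX5, 93 in TBX18 and 155 in TBX20. Of all 35116 windows 16.4% hold it, a share not matched for base content. The printed bases are 51.2% G or C in TBX5, 61.6% in TBX18 and 74.9% in TBX20. TBX18 also holds AAGTG at 118 bases, a motif that 37.6% of windows hold. The T-box, GATA and MEF2-type motifs, held by 2.76%, 9.17% and 1.35% of all windows, do not occur in the windows of TBX1, TBX5, TBX18 and TBX20. The window of TBX1 and that of the proximal TBX5 start, which was searched but is not printed, hold none of the 5. A match is a description of the letters, not a binding site.

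TBX5-AS1, a noncoding RNA that starts next to TBX5 on the opposite strand, stood below TBX5 at every time point except hESC, where it was the higher of the pair. It stood at 0.345 FPKM in hESC, 0.0544 at D1, 0.0489 at D2, 0.108 at D3, 0.180 at D4, 0.989 at D5, 0.936 at D6, 1.26 at D8, 1.60 at D10, 3.33 at D15 and 7.26 in cardiomyocytes. TBX5 stood at 5.61 times its antisense RNA at D4, 21.7 times at D6 and 8.61 times in cardiomyocytes, and the ratio was lower at each time point from D6 (21.7) to D15 (8.09). The RefSeq windows of TBX5-AS1 and of the proximal TBX5 start share 282 bases. Since no strand setting is given in the sources used here, reads of the 2 genes may not be told apart where they overlap.

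Over the 11 time points, Pearson r of log2(FPKM + 1) between members was highest for TBX5 and TBX20 (0.95), TBX5 and TBX18 (0.95) and TBX2 and TBX20 (0.95). It was lowest for TBX1 and TBX3 (0.25). Without hESC, D15 and cardiomyocytes, TBX1 and TBX20 came to 0.99 over 8 time points, from 0.46 over all 11. These are descriptions over columns that all genes share, and after D10 TBX1 was lower while TBX20 was higher.

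Outside the set, the protein-coding genes most like each member in time were found among 11556 genes that reached 5 FPKM. Those for TBX5 were muscle genes, TPM1, a thin filament tropomyosin (r 0.99, 371 FPKM in hESC and 3293 in cardiomyocytes), SMYD1, a muscle methyltransferase (0.99, 0.480 and 85.4), and TNNI1, a troponin (0.99, 1.16 and 1038). For TBX20 they were ARID5B (0.99), POPDC2, a membrane protein of muscle (0.99, 0.482 and 148 FPKM), and CAP2 (0.98). TBX2 was most like the ligand gene BMP5 (0.98, 0.277 and 136 FPKM), TRIM55 (0.98) and BCO2 (0.98). TBX18 was most like RBMS3 (0.99), the muscle regulator MEF2C (0.98) and FREM2 (0.98), a matrix gene that stood at 86.5 FPKM at D10 and 27.7 in cardiomyocytes. TBX3 was most like TARSL2 (0.97), TTC32 (0.95) and PPP2R3A (0.95). TBX1 never reached 5 FPKM and was not searched.

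Before the cardiac members came up, other T-box genes held the family's RNA. T (brachyury), the factor of the primitive streak, stood at 118 FPKM at D1, and EOMES, which acts in the streak and in MESP1 induction, at 63.9 at D2, where each was the highest of 16 measured T-box genes (MGA, a T-box protein that also carries a bHLH domain and stood between 17.6 and 34.6 throughout, is left out). The 6 cardiac genes made up 2.07% of the summed FPKM of the 16 at D1, 7.44% at D2, 42.0% at D3, 76.5% at D4, 89.7% at D5 and 98.7% in cardiomyocytes. The leading gene was TBX3 at D3 (16.5 beside EOMES at 15.1) and D4 (13.9), and TBX20 from D5 onward.

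**Figure D4:**
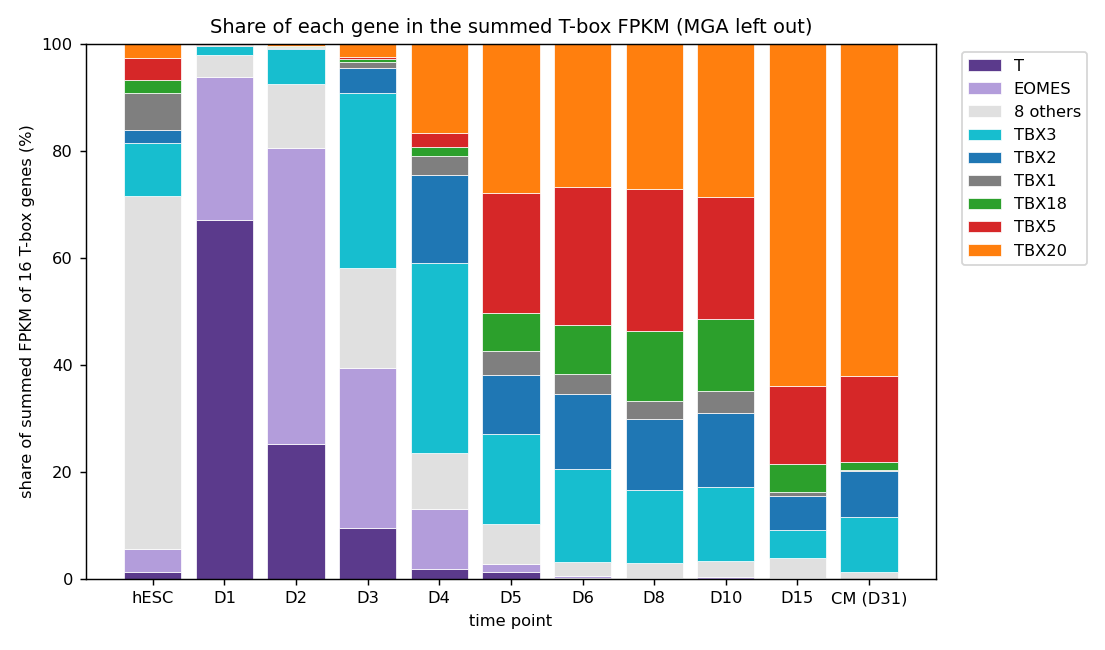
Share of each gene in the summed FPKM of 16 T-box genes at each time point (stacked bars to 100%; the 8 others are TBX4, TBX6, TBX10, TBX15, TBX19, TBX21, TBX22 and TBR1). The share of the 6 cardiac genes is 2.07% at D1, with T and EOMES filling most of the bar, and 98.7% in cardiomyocytes (CM).

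The D3 sort asked which genes mark ROR2-positive mesoderm. By the authors' deposited table, PMESO was called higher for 3 of the 6 genes (q under 0.05), a call that 11.4% of kept genes have by symbol, and 0 were called higher in ROR2-negative cells (background 9.14%). TBX2 (ENSG00000121068.9) stood at 0.375 FPKM in ROR2-negative cells and 8.30 in PMESO, a ratio of 22.1 in the authors' deposited table (q-value 0.00037), for the wide locus described above. TBX20 (ENSG00000164532.10, hg19 chr7:35242042-35293758) stood at 0.637 and 7.62 in the authors' deposited table, a ratio of 12.0 (q-value 0.00037). TBX3 (ENSG00000135111.10, hg19 chr12:115108059-115121969) stood at 4.19 and 29.2, a ratio of 6.97 in the authors' deposited table (q-value 0.00037). All 3 have the smallest p-value of the authors' deposited table, 5e-05, which 2163 of its 4648 genes share. TBX1, TBX5 and TBX18 are not among its genes, which is no sign that they were equal, since only called genes are listed.

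At D4 the sort of ROR2-positive cells by PDGFRa split the set. By the authors' deposited table, CMESO was called higher for 3 of the 6 genes (background 10.2%) and 1, TBX3, was called higher in PDGFRa-negative cells (background 11.1%). TBX20 stood at 3.09 FPKM in PDGFRa-negative cells and 37.0 in CMESO, a ratio of 12.0 in the authors' deposited table (q-value 0.00027). TBX2 stood at 3.55 and 19.1, a ratio of 5.39 in the authors' deposited table (q-value 0.00027), for the same wide locus. TBX5 (ENSG00000089225.15, hg19 chr12:114791736-114850636) stood at 0.103 and 3.30 in the authors' deposited table, a ratio of 31.9 from a very low base (p-value 0.00135, q-value 0.00533). TBX5-AS1, which shares that locus, stood at 0.00866 and 0.873 in the authors' deposited table (q-value 0.0273). TBX3 stood at 45.8 in PDGFRa-negative cells and 21.4 in CMESO, a ratio of 0.467 in the authors' deposited table (q-value 0.00027).

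TBX3 was thus higher in the positive cells of the D3 sort and lower in those of the D4 sort, by the authors' calls. The sorts used different receptors and separate libraries, so these are 2 contrasts set side by side, and their difference was not tested. Of 2161 genes called in both tables (46.5% of the D3 genes and 44.8% of the D4 genes), 923 (42.7%) were higher in the positive cells of both, as TBX2 and TBX20 were, and 357 (16.5%) shared the pattern of TBX3. Listed genes with that pattern included the progenitor factor ISL1, the pharyngeal gene FOXC1, T and EOMES, and TLE2, BMP7 and CYP26A1. The endoderm factor SOX17 also had it, as did FOXA2, which is on both the pharyngeal and the endoderm list. ISL1 stood at 0.667 and 9.66 FPKM at D3, and at 24.9 and 15.8 at D4, in negative and positive cells of the authors' deposited tables. PDGFRa-negative cells also held more RNA of pluripotency genes, with 4 of 5 markers called higher there (background 11.1%) and 0 called higher in CMESO (background 10.2%). POU5F1 stood at 63.3 against 9.30 in the authors' deposited table. At D3, 5 of 5 markers were called higher in ROR2-negative cells (background 9.14%). TBX3 was lower in those cells, at 4.19 against 29.2 FPKM in PMESO in the authors' deposited table. In hESC, POU5F1 stood at 1026 FPKM and TBX3 at 0.690. The part of pluripotency RNA in the TBX3 difference at D4 was not tested.

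**Figure D5:**
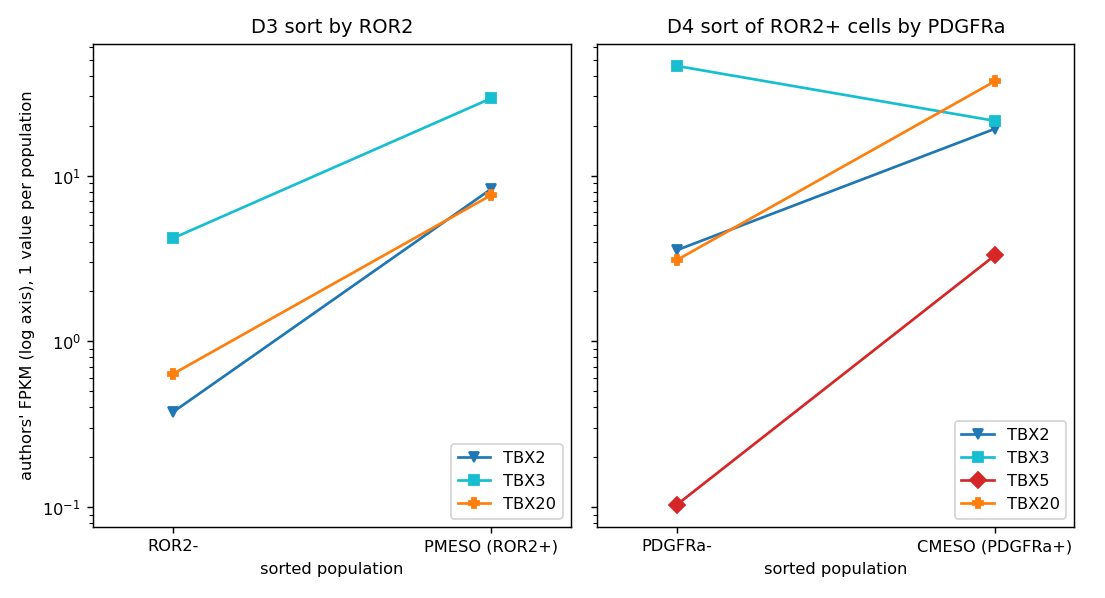
Authors' FPKM (log axis) of the members called in each sort table, in the negative (left) and positive (right) population, 1 value per population. At D3 all 3 called genes are higher in PMESO, and at D4 TBX3 goes from 45.8 in PDGFRa-negative cells to 21.4 in CMESO while TBX2, TBX5 and TBX20 are higher in CMESO.

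For the called members, most values of unsorted cells of the same day lay between those of the sorted populations, although the tables were normalized separately and the values are only set side by side. At D3 this held for TBX2 (2.40 FPKM unsorted), TBX3 (16.5) and TBX20 (1.25), and at D4 for TBX2 (6.45), TBX5 (1.01) and TBX20 (6.48). TBX3 at D4 lay outside, and its 13.9 FPKM in unsorted cells was below both sorted populations. Both D4 populations were ROR2-positive, so any ROR2-negative cells of the unsorted culture were in neither. The unsorted value of D4 therefore need not lie between them, and TBX3 in ROR2-negative cells of D4 was not measured.

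Partner genes of the set were largely called in the same cells. Of 11 cardiac partners, 8 were called higher in PMESO (background 11.4%) and 0 in ROR2-negative cells (background 9.14%). Among the 8 were GATA4 (2.25 against 24.9 FPKM in negative and positive cells) and HAND1 (1.92 against 47.5) in the authors' deposited table. At D4, 9 were called higher in CMESO (background 10.2%), with MYOCD, a coactivator of muscle genes, at 1.37 and 54.2 in the authors' deposited table. ISL1 and CASZ1 were called higher in PDGFRa-negative cells (background 11.1%). Over time, 5 of the 11 partners were 2-fold higher at D5 than at D4 (background 3.68%), the step in which TBX5 and TBX18 came up: NKX2-5, GATA4, HAND2, MEF2C and MYOCD. The list's median in that step was 0.20, beside 0.039 over all kept genes. NKX2-5 stood at 3.09 FPKM at D5 and 29.8 at D6, so its larger step came 1 time point after that of TBX5, while GATA4 stood at 12.7 at D4 and 40.2 at D5.

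Chamber genes that TBX5 is known to activate did not share a single time of increase. Before TBX5 reached its level of D5, NPPA and BMP10 were already 2-fold higher at D3 than at D2, and NPPB and RYR2 at D4 than at D3, with NPPB at 11.2 FPKM at D4. NPPA did not keep its D3 level, with 0.939 FPKM at D2, 6.29 at D3 and 2.63 at D4. ATP2A2 (71.2) and ID2 (50.4) were present in hESC. Of the 10 genes, 6 were 2-fold higher at D10 than at D4 (background 5.49%) and 0 lower (background 3.35%). The median of the 10 was 1.17, beside -0.0036 over all kept genes. The natriuretic peptide gene NPPA had 2.79 FPKM at D5, 9.06 at D6, 95.9 at D10, 761 at D15 and 226 in cardiomyocytes. GJA5, a connexin of atrial and conduction tissue, never passed 4.80 FPKM. Of 6 genes that TBX2 and TBX3 are known to repress, some are also on the TBX5 list. In cardiomyocytes 2 of the 6 were 2-fold higher than at D10 (background 8.14%) and 0 lower (background 4.61%). These were SMPX (36.5 and 139 FPKM) and NPPA. GJA1 is the main ventricular connexin and a known target of repression by TBX2 and TBX3. It stood at 360 FPKM in hESC, 643 at D1, 753 at D2, 155 at D4, 51.5 at D10, 68.0 at D15 and 26.7 in cardiomyocytes. It was thus higher at D2 than in hESC, while TBX3 was also higher.

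Lists were also read for the settings in which TBX18, TBX3 and TBX1 are known, and differences between the lists were not tested. Of 9 pacemaker and sinus genes, 7 were 2-fold higher at D10 than at D4 (median 1.13, background 5.49%). From D10 to cardiomyocytes, 2 were 2-fold higher (HCN4 and CACNA1G, background 8.14%) and 2 lower (ISL1 and NR2F1, background 4.61%). HCN4, the pacemaker channel, stood at 1.93 FPKM at D4, 12.0 at D10 and 57.1 in cardiomyocytes, and it was also at 22.6 in hESC. SHOX2, a sinus node factor, never passed 1.51. Of 12 kept second heart field and pharyngeal genes, 2 were 2-fold higher (background 5.49%) and 1 lower (background 3.35%) at D10 than at D4. In cardiomyocytes 5 were 2-fold lower than at D10 (background 4.61%) and 0 higher (background 8.14%), the comparison in which TBX1 was lower. The 5 were FGF8, FOXC1, FOXA2, CHRD and SHH. FGF8 stood at 3.82 and 0.150 FPKM and FOXC1 at 11.7 and 3.74. Of 7 BMP pathway genes, 3 were 2-fold higher at D10 than at D4 (background 5.49%) and 0 lower (background 3.35%). The 3 were BMP2, BMP5 and BMP7, with BMP2 at 13.2 FPKM at D4, 46.5 at D10 and 157 in cardiomyocytes.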

How the data were processed

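RNA of 30 libraries was sequenced by the submitters. The time-course table holds FPKM (fragments per kilobase, scaled to the library), as deposited by the authors with 1 value per gene and time point. The 2 libraries of a group were not given apart there, so no spread or test could be computed. Build hg19, Bowtie2 2.1.0.0, TopHat2 2.0.8b and Cufflinks are listed in the submitters' processing notes. Gene annotation, strand setting and scaling were not given in the sources used here. Per the file headers, both sort tables hold the authors' FPKM of each population, log2 fold change, ratio, test statistic (a score), p-value and q-value, for genes with q under 0.05 in the form used here. Starts of their loci were turned to 1-based.

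Differences over time were computed as log2(FPKM + 1) and counted at 2-fold, a scale that understates changes of low genes. Genes reaching 1 FPKM at some time point were kept (21715 of 41495 entries). The likeness search took the 3 protein-coding genes (GENCODE 29) with the highest Pearson r to a member, for members reaching 5 FPKM. Members, lists and the rule for named genes were chosen with earlier results of these data known. Scripts (Python 3.11.15, pandas 2.3.3) were tested on simulated data. Depth in reads is unknown. Alternatives were another pseudocount, no filter, rescaled columns, a stricter q and other likeness measures. Planned fits on separate libraries were not run. A listed gene is not reported here.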

Additional observations from a re-analysis of the deposited data

How the results depend on the processing

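With a pseudocount of 0.1, which gives low values more weight, 3 members were 2-fold lower at D1 than in hESC (0 with a pseudocount of 1), 2 were higher at D2 than at D1 (1), 4 were higher at D3 than at D2 (2), 4 were higher at D4 than at D3 (2), and 1 was lower at D15 than at D10 (0). After rescaling of the columns, 2 members were higher in cardiomyocytes than at D15 (4 as reported). With cardiomyocytes in place of D15, an alternative chosen after seeing the data, 4 members were higher and 1 was lower than at D10 (1 and 0). The other counts of 2-fold members at each step, and the calls in the sort tables at q under 0.01 or with a 2-fold difference, stayed within 1.5 times. Rescaling moved 0 of 6 highest time points. A minimum of 0.5 or of 2 FPKM in place of 1 each moved the first time point of 3 of the 6 members. Without cardiomyocytes and before rescaling, TBX2 was highest at D10, TBX3 at D3, and TBX5 and TBX20 at D15. After rescaling, TBX2 was higher at D15 (15.1 FPKM) than at D10 (13.4). The genes most like a member depended on the measure: with Spearman's rho or without hESC, D15 and cardiomyocytes, at most 1 of the 3 genes named for a member was again among its 3. No paired analysis was possible because the tables used here give 1 value for the 2 libraries of a group, and for the same reason no library could be left out. Depth in reads is unknown, and values below 1 FPKM are the least certain.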

Other observations

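T-box genes outside the cardiac set stayed below 2 FPKM from D5 onward, apart from MGA. TBX6, a factor of paraxial mesoderm, stood at 9.94 FPKM at D2 and between 0.198 and 2.45 at all other time points. TBX10 stood at 5.75 FPKM at D3, its highest value, but in the authors' deposited table it was lower in PMESO (2.87) than in ROR2-negative cells (4.01, q-value 0.0425). TBX4, the neighbour of TBX2 on chromosome 17 and its relative, never passed 1.15 FPKM over time, yet the authors' deposited tables call it higher in the positive cells of both sorts, at 0.433 and 2.16 FPKM at D3 (q-value 0.00037) and at 0.0700 and 1.16 at D4 (q-value 0.00074).

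Among Groucho-family corepressors, which several T-box factors can recruit, TLE1 and TLE2 changed places over time. TLE1 stood at 26.0 FPKM in hESC, 17.9 at D4, 13.0 at D10 and 5.13 in cardiomyocytes, while TLE2 stood at 5.33, 1.21, 15.6 and 23.5. In the authors' deposited table of the D4 sort, TLE1 was higher in PDGFRa-negative cells (46.6 against 13.7 FPKM, q-value 0.00027) and TLE4 was higher in CMESO (17.5 against 37.9 FPKM, q-value 0.00027). The coactivator WWTR1 (TAZ) went from 10.9 FPKM at D15 to 33.6 in cardiomyocytes.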
